A study of Mus musculus with 6 samples.

Results

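The collagen chain genes are the genes that encode the alpha chains of the collagens, and they were taken as every row of the count table whose symbol has the form Col, a type number, the letter a and a chain number. The rule found 44 genes among 55453 rows, of which 37 had enough counts to be tested among 18192 genes in all. They were divided by collagen type into 11 fibrillar chains (types 1, 2, 3, 5, 11, 24 and 27), 8 basement membrane chains (types 4, 15 and 18) and 25 others. RNA was sequenced from mouse aortae in which the gene for serum response factor, Srf, was floxed, that is, flanked by sites at which Cre recombinase cuts. The 3 control aortae came from mice heterozygous for the floxed allele and the 2 experimental aortae from homozygous mice, so the controls carried 1 floxed copy as well. Every mouse was hemizygous for Itga8-CreERT2, a Cre driven by the gene of an integrin of smooth muscle and switched on by tamoxifen, and every mouse was given tamoxifen at 33 mg/kg on 5 consecutive days and sampled 10 days after the last dose. Per the labels' protocols, the outer coat (adventitia) and the endothelium were stripped from each aorta, which was frozen on its own. Homozygous replicate 1 was not analysed here, and per the submitters' design text an outlying homozygous sample, which it does not name, was left out.

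Collagens are trimers of alpha chains wound into a triple helix, and the types differ in what they build. Fibrillar collagens assemble into the tensile fibrils that lie between the elastic sheets of the aortic wall, where types I and III are the main forms and type V is a minor chain that regulates fibril growth. Type IV collagens form the sheet of the basement membrane that wraps each smooth muscle cell and underlies the endothelium, and types XV and XVIII are proteoglycans of the basement membrane zone. SRF is a transcription factor that, with the coactivator myocardin, drives the contractile genes of smooth muscle by binding a DNA motif called the CArG box.

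The libraries held between 26177821 and 34311855 counts. Values below are CPM, counts scaled to the size of the library after correction by the trimmed mean of M-values. Fold changes set the homozygous against the heterozygous group on the log2 scale, as edgeR fitted them, each with its standard error (SE). Heterozygous replicate 3 stood apart from the other libraries: in a principal component analysis it had a score of 60.5 on component 1 (51.5% of the variance), whereas the scores of the other libraries lay between -44.6 and 8.33. Results that rest on it are therefore given with and without it. Srf measured 56.1, 64.4 and 68.3 CPM in the heterozygous libraries and 45.0 and 38.6 CPM in the homozygous libraries, with a log2 fold change of -0.59 (SE 0.122, edgeR adjusted p = 0.115, DESeq2 adjusted p = 0.00373). The summed level of 8 smooth muscle markers lay between 21766 and 22567 CPM in the heterozygous libraries and between 12654 and 13311 CPM in the homozygous libraries. DESeq2 called 6 of these 8 markers lower, beside 2.61% of all genes, and the most abundant was Myh11, smooth muscle myosin heavy chain, at 9439, 8695 and 9181 against 5484 and 5165 CPM. Transcripts of the stripped layers were still present: Pi16, a marker of adventitial fibroblasts, lay between 269 and 305 CPM, and Vwf, of endothelium, between 96.0 and 463 CPM. In whole tissue, fewer cells of a type and less RNA per cell cannot be told apart.

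The collagen chains did not stand on one side between the genotypes. Of the 8 basement membrane chains, Col18a1, Col4a1, Col4a2 and Col4a5 were lower in both homozygous aortae than in every control. The other 4 overlapped, and 18.2% of all genes tested were lower without overlap. The abundant chains of types I and III overlapped between the groups. Outside the basement membrane class, Col5a1, Col5a2, Col6a1, Col6a2, Col6a3, Col19a1 and Col22a1 were also lower without overlap. Col27a1, Col14a1, Col5a3, Col6a6 and Col6a4 were higher without overlap, as were 17.4% of all genes tested. At an adjusted p under 0.05, edgeR's quasi-likelihood test called 0 of the 37 tested chains, where it called 0.0% of all 18192 genes, and the lowest adjusted p of a collagen was 0.104. At an unadjusted p under 0.05 it marked 6 collagens lower and 5 higher, against backgrounds of 6.75% of genes lower and 9.04% higher. DESeq2, used as an alternative test, called 5 of the 35 collagens with an adjusted p lower and 1 higher, where it called 2.61% of all genes lower and 3.33% higher. Without heterozygous replicate 3 it called 8 of 33 lower, the same 5 with Col3a1, Col6a1 and Col6a3, beside 2.64% of all genes, and 1 higher, beside 2.67%. Without heterozygous replicate 1 or 2 it called 3 of 35 and 4 of 32 collagens lower, beside 2.13% and 1.95% of all genes. Without homozygous replicate 2 or 3 it called 1 of 36 and 1 of 20, beside 0.807% and 3.23%, and Col18a1 was called lower whichever library was left out. edgeR run without the filter on low counts called 4 of 44 collagens lower and 3 higher, against 1.42% and 3.23% of genes.

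The values of the groups did not overlap for 16 of the 37 chains, 11 of them lower in the homozygous libraries and 5 higher, beside 18.2% and 17.4% of all genes tested. The median log2 fold change was -0.01 over the 37 chains and -0.02 over all genes tested. Of all 18192 genes tested, 9605 had a log2 fold change below 0 and 8587 above 0. The classes are described by their counts and medians, and differences between them were not tested. Of the 8 basement membrane chains, 7 had a log2 fold change below 0, with a median of -0.16. Of the 9 fibrillar chains tested, 5 were below 0, with a median of -0.01 and a range from -0.30 to 0.52. The 20 other chains tested had a median of 0.07, with 7 below 0. The medians of small classes moved with single libraries: without heterozygous replicate 1 the basement membrane median was -0.09 and that of the other chains 0.20, and without homozygous replicate 2 the latter was -0.15.

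**Figure D1:**
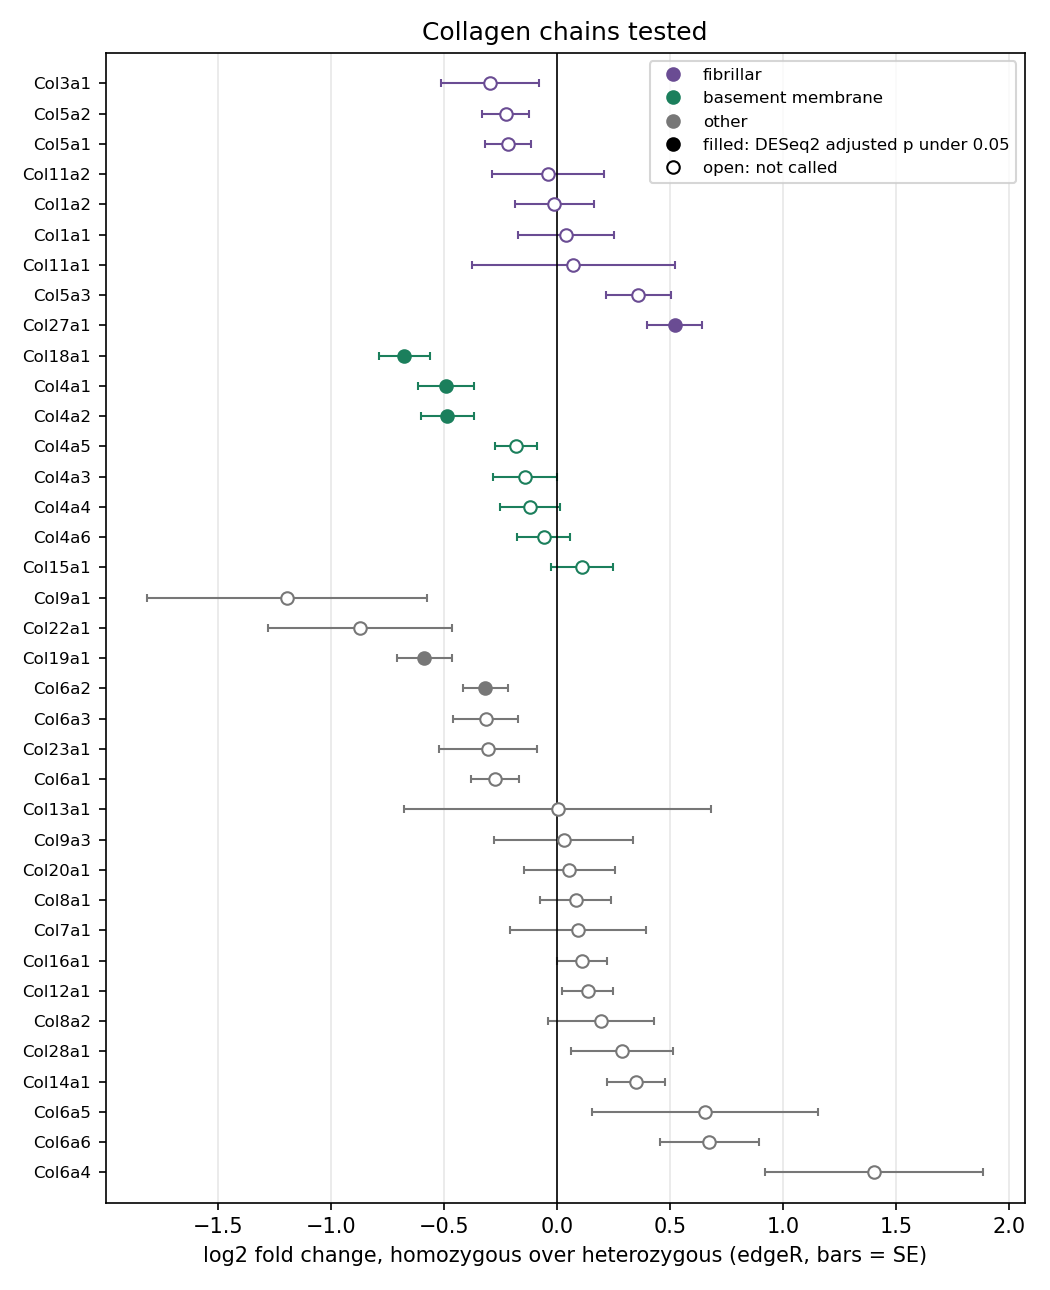
Log2 fold change of each tested collagen chain, homozygous over heterozygous, from edgeR, with the SE as bars, grouped into fibrillar, basement membrane and other chains; filled points have a DESeq2 adjusted p under 0.05. The filled points on the left are Col18a1, Col4a1, Col4a2, Col19a1 and Col6a2, and the filled point on the right is Col27a1.

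Collagen chains together took 2.93%, 2.89% and 2.19% of all counts in the heterozygous libraries and 2.41% and 2.40% in the homozygous libraries. Heterozygous replicate 3 was the lowest of the 5, so the groups overlapped, and the log2 ratio of the mean shares was -0.15 with it and -0.28 without it. The fibrillar chains took 1.12% of that library against 1.70% and 1.68% of the other heterozygous libraries, with 1.43% and 1.45% in the homozygous ones. The 8 basement membrane chains took 0.833%, 0.845% and 0.759% of counts in the heterozygous libraries and 0.640% and 0.622% in the homozygous libraries, and these groups did not overlap. Most of this share came from Col18a1, Col4a1 and Col4a2, and 4 of the 8 chains taken singly overlapped between the groups. Within the collagen counts of each library, basement membrane chains made up 28.4%, 29.2% and 34.6% in the heterozygous and 26.6% and 25.9% in the homozygous aortae. The 25 other chains took 0.397%, 0.366% and 0.312% against 0.337% and 0.337%.

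**Figure D2:**
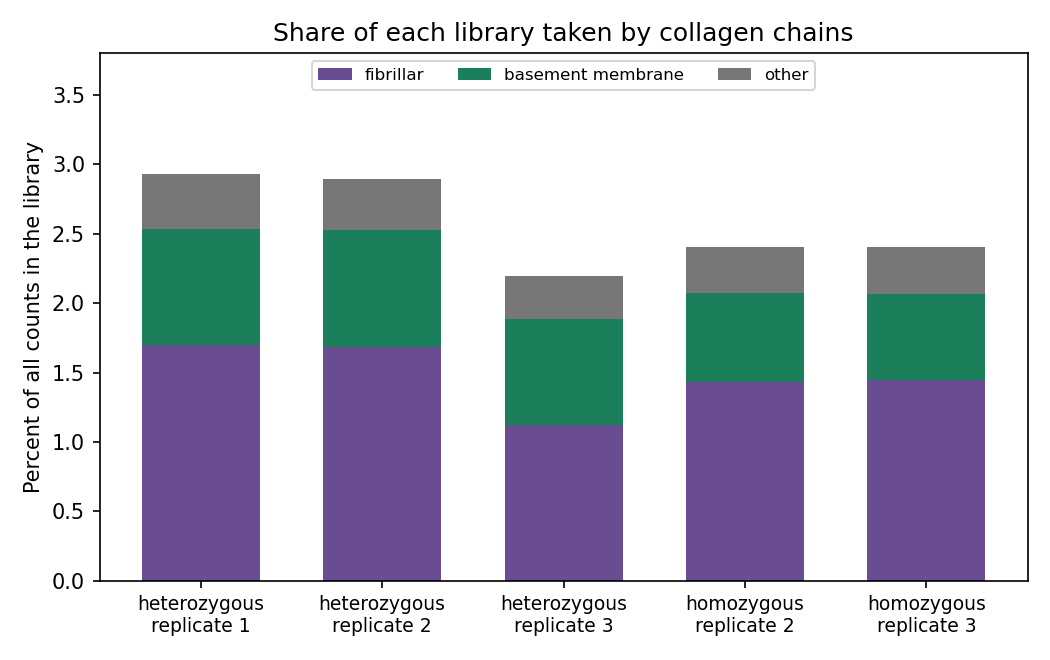
Percent of all counts in each library taken by fibrillar, basement membrane and other collagen chains, stacked, with 1 bar per aorta library. The basement membrane segment is smaller in both homozygous libraries (0.640% and 0.622%) than in the 3 heterozygous ones (0.759% to 0.845%), and heterozygous replicate 3 has the smallest fibrillar segment (1.12%).

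Col18a1, on chr10:77052178-77166548 (GRCm38, minus strand), encodes the chain of type XVIII collagen, whose carboxyl end is the source of endostatin. It measured 2486, 2695 and 2567 CPM in the heterozygous libraries and 1697 and 1537 CPM in the homozygous libraries. Every homozygous value was below every heterozygous value, and heterozygous replicate 3 was close to the other controls, at 0.991 times their mean. The change was -37.4%, a log2 fold change of -0.68 (SE 0.112), with an edgeR adjusted p of 0.104 and a DESeq2 adjusted p of 1.78e-07. Without heterozygous replicate 3 the log2 fold change was -0.66, and the DESeq2 adjusted p with 1 library left out ran from 1.01e-06 to 0.0178. The summed smooth muscle markers were lower in the same libraries, and their part in this result was not tested.

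Col4a1 and Col4a2 encode the chains of the most widespread type IV trimer, which holds both of them. Col4a1 measured 2073, 2305 and 1944 CPM in the heterozygous and 1579 and 1422 CPM in the homozygous libraries, which gave a log2 fold change of -0.49 (SE 0.123, edgeR adjusted p = 0.146, DESeq2 adjusted p = 0.00523). Col4a2 measured 1470.7, 1526 and 1336 CPM against 1090 and 974 CPM (log2 fold change -0.48, SE 0.116, edgeR adjusted p = 0.135, DESeq2 adjusted p = 0.00303). For both chains the homozygous values lay below the lowest control, and without heterozygous replicate 3 the log2 fold changes were -0.53 and -0.52. The DESeq2 calls held without any 1 control and were lost without homozygous replicate 2 (adjusted p = 0.0972 for Col4a1 and 0.0701 for Col4a2) or homozygous replicate 3 (0.212 and 0.204). The genes lie head to head on chromosome 8, Col4a1 at chr8:11198423-11312826 on the minus strand and Col4a2 at chr8:11312805-11449287 on the plus strand, and their annotated ends overlap by 22 bases. Together with Col18a1 they took 0.610%, 0.641% and 0.561% of all counts in the controls and 0.446% and 0.402% in the homozygous aortae. Endothelium also makes these chains, and the summed level of 10 endothelial markers was 850, 1077 and 818 CPM in the heterozygous libraries and 1210 and 473 CPM in homozygous replicates 2 and 3. The part of endothelial RNA in these results was not tested.

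The remaining chains of the basement membrane class differed less. Col4a5 measured 884, 850 and 864 CPM against 754 and 774 CPM, and its groups did not overlap, but the log2 fold change of -0.18 (SE 0.0942) had an adjusted p of 0.414 in edgeR and 0.268 in DESeq2. Its partner on the X chromosome, Col4a6, measured 525, 459 and 514 CPM against 440 and 519 CPM, and its groups overlapped (log2 fold change -0.06, SE 0.118). Col4a3 and Col4a4 encode the chains that join the alpha 5 chain in the mature glomerular basement membrane of the kidney. In the aorta Col4a4 measured 104, 85.3 and 79.8 CPM against 85.8 and 79.5 CPM, and Col4a3 measured 63.8, 53.4 and 46.0 CPM against 50.6 and 48.2 CPM. Both overlapped between the groups. Col15a1, the closest relative of Col18a1, measured 622, 623 and 554 CPM against 564 and 733 CPM. Of its homozygous libraries, replicate 2 lay within the range of the controls and replicate 3 above it. The log2 fold change was 0.11 (SE 0.137, edgeR adjusted p = 0.743), unlike the -0.68 of Col18a1, and the difference between the 2 genes was not tested.

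The upstream stretches of 4 collagen genes are printed here because Col18a1, Col19a1 and Col27a1 were the chains of their classes with the lowest DESeq2 adjusted p, and Col3a1 was the chain that shifted against Col1a1 within libraries. Sequences are from RefSeq on GRCm38.p6, on the strand of each gene, limited to bases before the start that no annotated exon covers. The search covered both strands for the CArG box and for 3 common promoter motifs: the CCAAT box, spelled CCAAT; the GC box, spelled GGGCGG; and the TATA box, spelled TATAAA. Matches are in capitals, and a CCAAT box on the other strand reads ATTGG, whereas a GC box there reads CCGCCC. The Col27a1 stretch precedes the RefSeq start, which lies inside the gene as GENCODE annotates it. RefSeq gives Col18a1 another start, at chr10:77113705. The longest run before it that no annotated exon covers was 9 bases, and it is not printed.
Col18a1, chr10:77166549-77166780, minus strand: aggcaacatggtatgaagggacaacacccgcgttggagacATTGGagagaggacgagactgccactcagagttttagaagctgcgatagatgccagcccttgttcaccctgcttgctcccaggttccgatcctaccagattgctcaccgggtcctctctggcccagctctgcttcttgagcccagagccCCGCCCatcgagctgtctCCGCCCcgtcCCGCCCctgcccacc
Col19a1, chr1:24587473-24587687, minus strand: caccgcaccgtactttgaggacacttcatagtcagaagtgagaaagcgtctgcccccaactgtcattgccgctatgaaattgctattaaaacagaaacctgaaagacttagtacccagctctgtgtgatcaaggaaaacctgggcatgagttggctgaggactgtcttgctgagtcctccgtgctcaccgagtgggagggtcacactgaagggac
Col27a1, chr4:63215162-63215411, plus strand: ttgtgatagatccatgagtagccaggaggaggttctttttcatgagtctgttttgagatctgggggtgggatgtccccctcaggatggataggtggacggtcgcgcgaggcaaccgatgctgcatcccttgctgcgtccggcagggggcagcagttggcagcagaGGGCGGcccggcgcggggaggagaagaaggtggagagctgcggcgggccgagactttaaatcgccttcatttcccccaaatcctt
Col3a1, chr1:45311288-45311537, plus strand: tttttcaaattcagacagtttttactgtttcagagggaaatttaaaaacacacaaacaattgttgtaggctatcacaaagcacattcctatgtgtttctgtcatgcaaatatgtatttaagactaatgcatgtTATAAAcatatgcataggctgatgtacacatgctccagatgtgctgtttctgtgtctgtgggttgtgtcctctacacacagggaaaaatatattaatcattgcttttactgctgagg
RefSeq windows of 250 bases before the start were at hand for 35 of the 44 collagen genes, 38 windows in all, against 32851 windows over all genes. The CArG box was in 1 collagen window, that of Col6a4, and in 1.47% of all windows. The CCAAT box was in 13 of the 38 collagen windows and 33.8% of all windows, the GC box in 22 and 32.7%, and the TATA box in 5 and 12.4%. No CArG box was in the printed stretches, which says only that these letters are not in these bases.

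**Figure D3:**
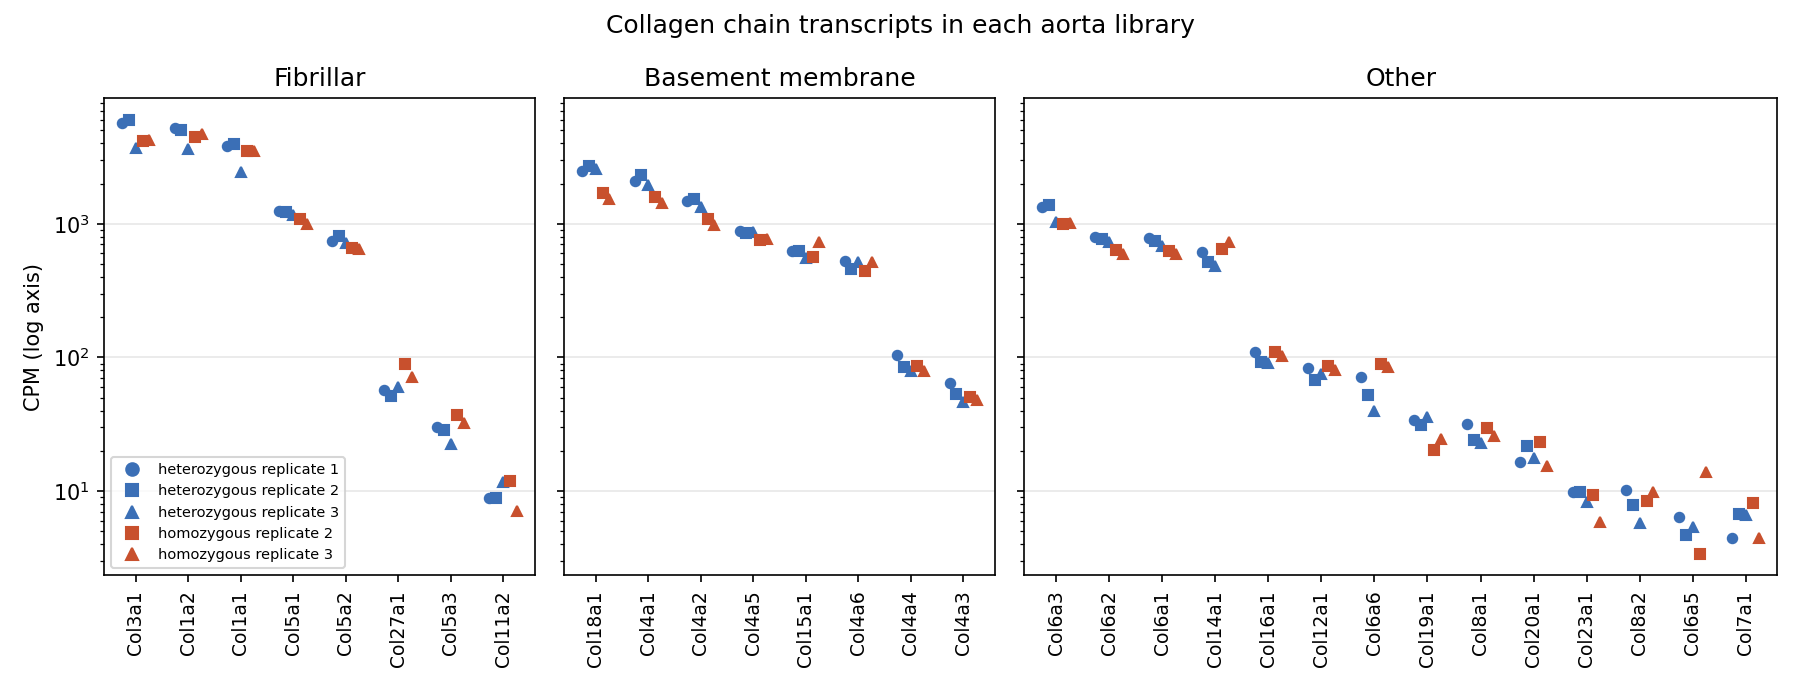
CPM on a log axis of the 30 collagen chains with a mean of at least 5 CPM, 1 point per library, in 3 panels by class, with heterozygous libraries in blue and homozygous libraries in red. Heterozygous replicate 3 (blue triangle) lies lowest for Col3a1, Col1a2 and Col1a1, and both homozygous libraries lie below the controls for Col18a1, Col4a1 and Col4a2.

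The fibrillar chains included the most abundant collagen transcripts of the aorta. Col3a1, on chr1:45311538-45349706, encodes the chain of type III collagen, which is abundant in distensible tissue. It measured 5674, 6005 and 3665 CPM in the heterozygous and 4130 and 4206 CPM in the homozygous libraries. The homozygous values lay between heterozygous replicate 3 and the other controls, so the groups overlapped, with a log2 fold change of -0.30 (SE 0.216, edgeR adjusted p = 0.564, DESeq2 adjusted p = 0.590). Without heterozygous replicate 3 it was -0.47, and DESeq2 then called Col3a1 lower at adjusted p = 0.000174.

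Col1a1, on chr11:94936224-94953042, and Col1a2, on chr6:4504814-4541544, encode the chains of type I collagen. Col1a1 measured 3835, 3958 and 2432 CPM against 3531 and 3476 CPM (log2 fold change 0.04, SE 0.213, edgeR adjusted p = 0.954). Col1a2 measured 5205, 5033 and 3633 CPM against 4468 and 4710 CPM (log2 fold change -0.01, SE 0.175, edgeR adjusted p = 0.985). For both, heterozygous replicate 3 was the lowest library and the other controls were above the homozygous ones, and without that library each log2 fold change was -0.14. Heterozygous replicate 3 held 0.624 times the mean of the other controls for Col1a1, 0.628 times for Col3a1 and 0.710 times for Col1a2, but 0.934 times for Col5a1. In the same library the summed level of 12 adventitial fibroblast markers was 1424 CPM, against 1725 and 1568 CPM in the other controls and 1769 and 1803 CPM in the homozygous libraries. Of these 12 markers 11 had a log2 fold change above 0, with a median of 0.25, beside 8587 of all 18192 genes tested. DESeq2 called 0 of the markers, as did edgeR, and their part in the fibrillar results was not tested.

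Col5a1 and Col5a2, the chains of the type V trimer that joins type I fibrils, were lower in both homozygous libraries than in every control, by less than Col18a1. Col5a1 measured 1252, 1220 and 1155 CPM against 1080 and 1001 CPM (log2 fold change -0.22, SE 0.103, edgeR adjusted p = 0.372). Col5a2 measured 743, 812 and 722 CPM against 654 and 642 CPM (log2 fold change -0.23, SE 0.102, edgeR adjusted p = 0.342). Neither was called by DESeq2, at adjusted p = 0.259 and 0.255. The third type V chain went the other way: Col5a3 measured 29.9, 28.9 and 22.4 CPM against 37.2 and 32.4 CPM, with no overlap and a log2 fold change of 0.36 (SE 0.144, edgeR adjusted p = 0.291). Without heterozygous replicate 3 that value was 0.26.

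Col27a1, a fibrillar chain best known from cartilage, was the collagen that DESeq2 called higher. It measured 57.0, 51.4 and 59.8 CPM in the heterozygous and 89.0 and 71.9 CPM in the homozygous libraries, with no overlap. The log2 fold change was 0.52 (SE 0.122), with an edgeR adjusted p of 0.131 and a DESeq2 adjusted p of 0.0126, and it was 0.59 without heterozygous replicate 3. DESeq2 no longer called it once heterozygous replicate 1, heterozygous replicate 2 or homozygous replicate 2 was removed, with adjusted p = 0.0673, 0.0735 and 0.627 in turn; the last of these is the library highest in Col27a1. The summed level of 8 chondrocyte markers was 82.4, 92.5 and 74.7 CPM in the heterozygous and 65.6 and 59.3 CPM in the homozygous libraries. Col2a1, the main collagen of cartilage, had 6, 5 and 3 counts in the heterozygous and 11 and 9 in the homozygous libraries, too few to be tested, and was thus higher in the same libraries as Col27a1. The part of cartilage in this result was not tested. Col11a2, another fibrillar chain of cartilage, measured 8.83, 8.87 and 11.8 CPM against 12 and 7.13 CPM and overlapped between the groups. Its partner Col11a1 lay between 0.637 and 1.91 CPM.

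Chains that build 1 trimer or lie at 1 locus were set against each other within each library, together with Col3a1 and Col1a1, the main chains of types III and I, whose genes lie on different chromosomes. In such a ratio the depth of the library cancels. The count ratio of Col4a1 to Col4a2 was 1.41, 1.51 and 1.46 in the heterozygous and 1.45 and 1.46 in the homozygous libraries, a range of 7.14% over all 5, while both levels were lower in the homozygous aortae. Col6a1 to Col6a2 was as steady, at 0.987, 0.962 and 0.932 against 0.979 and 1.00, a range of 7.39%. Col4a3 to Col4a4, whose genes start 71 bases apart on opposite strands of chromosome 1, was 0.612, 0.626 and 0.577 against 0.590 and 0.606. The bases between those 2 starts, which no annotated exon covers, are shown because both genes are read away from them.
Col4a4 to Col4a3, chr1:82586850-82586920, minus strand: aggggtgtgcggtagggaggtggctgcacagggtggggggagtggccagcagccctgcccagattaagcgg
None of the motifs searched was in this stretch.

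The ratio of Col3a1 to Col1a1 was the 1 of the 9 pairs whose groups did not overlap. Among single genes tested, 18.2% were lower without overlap and 17.4% higher, and no such share was computed over pairs of genes. It was 1.48, 1.52 and 1.51 in the heterozygous libraries and 1.17 and 1.21 in the homozygous libraries. The log2 difference was -0.34, against a within-group SD of 0.0252, and it stayed between -0.36 and -0.31 whichever library was left out. In heterozygous replicate 3, in which both levels were lowest, the ratio of 1.51 lay between those of the other controls. With 3 and 2 libraries this is given as a description, without a test. The type I pair, Col1a1 to Col1a2, was 0.737, 0.786 and 0.669 against 0.790 and 0.738, and the type V pair, Col5a1 to Col5a2, was 1.69, 1.50 and 1.6 against 1.65 and 1.56. Col4a5 to Col4a6, head to head on the X chromosome with 1308 bases between them, was 1.68, 1.85 and 1.68 against 1.71 and 1.49. The remaining pairs, Col6a1 to Col6a3 and Col8a1 to Col8a2, overlapped as well.

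**Figure D4:**
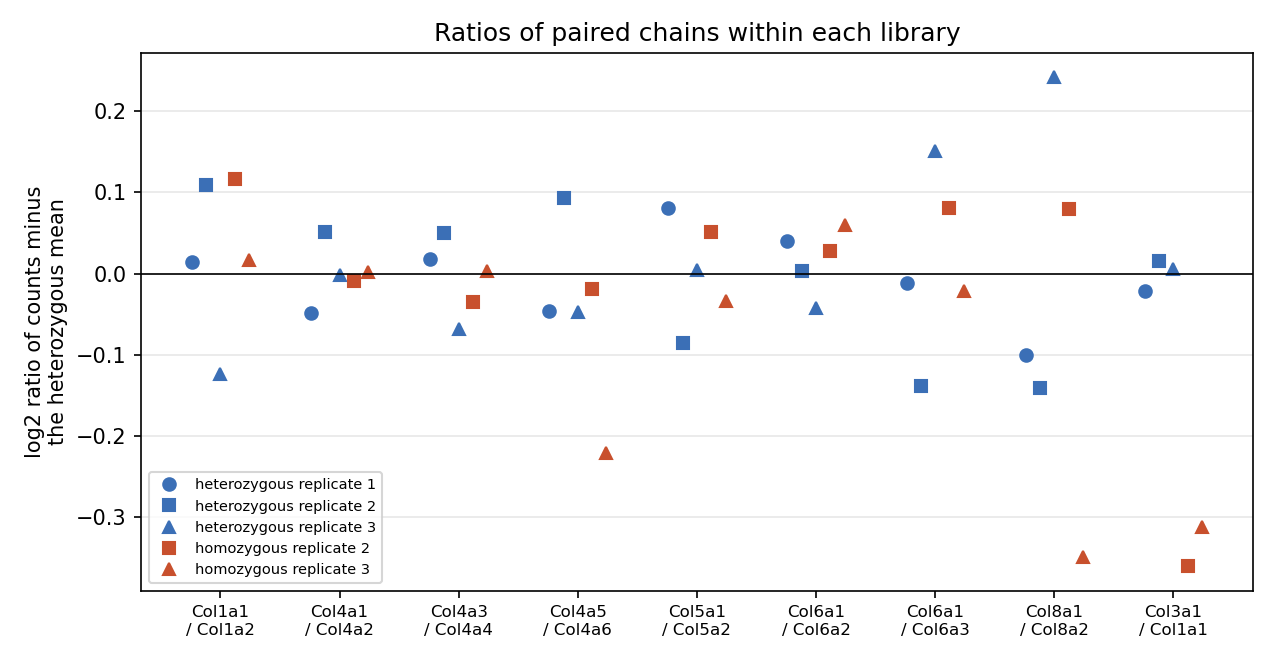
Log2 ratio of the counts of 2 collagen chains in each library, minus the mean of the heterozygous libraries, for 9 pairs of chains, with 1 point per library. The homozygous points of Col3a1 / Col1a1 lie below the 3 controls and apart from them, and the points of Col4a1 / Col4a2 and Col6a1 / Col6a2 lie close to 0. The homozygous replicate 3 point of Col8a1 / Col8a2 lies about as low as those of Col3a1 / Col1a1.

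Type VI collagen forms beaded filaments that anchor cells to the fibrils around them, and its classical trimer holds the chains of Col6a1, Col6a2 and Col6a3. Col6a2 measured 798, 767 and 733 CPM against 636 and 593 CPM, and DESeq2 called it lower (adjusted p = 0.0358; edgeR log2 fold change -0.32, SE 0.0998, adjusted p = 0.208). Col6a1 measured 787, 738 and 683 CPM against 623 and 594 CPM (log2 fold change -0.28, SE 0.106, edgeR adjusted p = 0.276). Col6a3 measured 1339, 1371 and 1038 CPM against 993 and 1016 CPM (log2 fold change -0.31, SE 0.144, edgeR adjusted p = 0.351). In each of these 3 genes the homozygous values lay below every control. For Col6a3 the lowest control, heterozygous replicate 3, was close to the homozygous libraries, and without it the log2 fold change was -0.41. Without that library DESeq2 called all 3 chains lower, at adjusted p = 0.0355 for Col6a1, 0.0221 for Col6a2 and 0.000878 for Col6a3. The call of Col6a2 was lost without any other library, at adjusted p from 0.177 to 0.497.

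The chains that can take the place of the alpha 3 chain, Col6a4, Col6a5 and Col6a6, had the largest positive log2 fold changes of the 37 chains that edgeR tested. Col6a6 measured 71.2, 52.6 and 39.5 CPM against 88.7 and 85.3 CPM, with no overlap (log2 fold change 0.67, SE 0.219, edgeR adjusted p = 0.215, DESeq2 adjusted p = 0.0639). Without heterozygous replicate 3, its lowest library, the value was 0.51. DESeq2 called Col6a6 higher with heterozygous replicate 1, its highest control, left out (adjusted p = 0.000222), and without the filter on low counts edgeR called it higher at adjusted p = 0.00357. Col6a5 measured 6.37, 4.69 and 5.41 CPM against 3.39 and 13.8 CPM, so that homozygous replicate 3 alone stood above the controls and homozygous replicate 2 lay below them. Without homozygous replicate 2, DESeq2 called Col6a5 higher at adjusted p = 0.00285, from homozygous replicate 3 alone. Col6a4 had 15, 19 and 7 counts in the heterozygous and 48 and 22 in the homozygous libraries, a log2 fold change of 1.40 (SE 0.482, edgeR adjusted p = 0.236). edgeR without the low-count filter called Col6a4 higher at adjusted p = 0.0395. Words of 100 bases shared with other genes made up 2.36% of those in the annotated transcripts of Col6a5 and 2.42% for Col6a6. A small part of their reads could thus be split between copies. The largest such share among the collagen chains was 3.65%, for Col4a3.

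Fibril-associated collagens sit on the surface of fibrils and link them to their surroundings. Col14a1, the most abundant of them in these aortae per kilobase of transcript, measured 612, 517 and 485 CPM against 647 and 724 CPM, higher in both homozygous libraries than in every control. Its log2 fold change was 0.35 (SE 0.129, edgeR adjusted p = 0.263, DESeq2 adjusted p = 0.145), and the summed adventitial fibroblast markers stood higher in the same libraries. Without heterozygous replicate 1, its highest control, DESeq2 called Col14a1 higher at adjusted p = 0.0372. Col19a1, found in few tissues, measured 33.9, 31.5 and 35.8 CPM against 20.1 and 24.7 CPM. The homozygous values lay below the controls, with a log2 fold change of -0.59 (SE 0.122, edgeR adjusted p = 0.115), and DESeq2 called it lower at adjusted p = 0.00470. Without heterozygous replicate 3 its value was -0.52, and DESeq2 no longer called it once heterozygous replicate 1 was removed (adjusted p = 0.0565). The call was also absent with either homozygous library removed. Without homozygous replicate 2 the DESeq2 log2 fold change was -0.45. Without homozygous replicate 3 it was -0.74, and DESeq2 gave no adjusted p. Col16a1 measured 110, 93.1 and 91.3 CPM against 110 and 102 CPM, Col12a1 83.8, 67.8 and 75.6 CPM against 86.6 and 79.8 CPM, and Col20a1 16.5, 21.8 and 17.7 CPM against 23.4 and 15.4 CPM. These 3 chains overlapped between the groups, with log2 fold changes from 0.05 to 0.14.

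Of the remaining chains above 5 CPM, none had groups that did not overlap. Type VIII collagen is a short-chain network collagen of vessels, and Col8a1 measured 31.6, 23.9 and 23 CPM against 29.6 and 25.9 CPM. Its partner Col8a2 measured 10.1, 7.89 and 5.81 CPM against 8.38 and 9.86 CPM. Col23a1, a transmembrane collagen, measured 9.90, 9.87 and 8.32 CPM against 9.33 and 5.87 CPM, and Col7a1, the anchoring fibril chain of skin, measured 4.43, 6.73 and 6.56 CPM against 8.17 and 4.45 CPM. Below 5 CPM, Col28a1 lay between 2.47 and 4.14 CPM, and Col22a1, a chain of tissue junctions of muscle, had 91, 50 and 30 counts against 29 and 32. The log2 fold change of Col22a1 was -0.87 (SE 0.407, edgeR adjusted p = 0.363). Col9a1, a fibril-associated chain of cartilage, had 12, 7 and 9 counts against 6 and 2, and its log2 fold change of -1.19 had an SE of 0.619. Col9a3 and Col13a1 overlapped between the groups. The 7 chains with too few counts to be tested were Col2a1, Col24a1, Col10a1, Col26a1, Col25a1, Col17a1 and Col9a2, each with between 0 and 11 counts per library.

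Levels were compared between genes per kilobase of the longest protein-coding transcript, averaged over the 5 libraries. Col1a2 and Col3a1 were first, at 862 and 851 CPM per kilobase, followed by Col1a1 at 581, Col18a1 at 393, Col4a1 at 282 and Col4a2 at 198. Col6a1, Col6a2, Col5a1 and Col4a5 came next, between 126 and 167 CPM per kilobase. In the heterozygous group the first 3 measured 865 ± 161, 919 ± 228 and 575 ± 143 CPM per kilobase (SD, n = 3), so the order of Col1a2 and Col3a1 was not resolved. Col1a1 was below both in each of the 5 libraries, at 0.604 to 0.713 times Col1a2 per length, and Col3a1 was at 1.25 to 1.62 times Col1a1. The order rests on the length used: per kilobase of all merged exons, 12426 bases for Col1a2, it was Col1a1, Col3a1 and Col1a2. Col18a1 held the fourth place, Col4a1 the fifth and Col4a2 the sixth with either length. In the heterozygous libraries Col18a1 stood at 462 ± 18.8 CPM per kilobase (SD, n = 3) and in the homozygous libraries at 289 ± 20.2 (SD, n = 2).

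A list of 50 genes that act on collagen was read in the same way, covering enzymes that hydroxylate and glycosylate the chains, chaperones and export factors, proteases that trim procollagen, crosslinking oxidases and receptors. Of its 47 tested members edgeR called 0, with a lowest adjusted p of 0.149, and marked 6 lower and 3 higher at an unadjusted p under 0.05, beside 6.75% and 9.04% of all genes. DESeq2 called 3 lower and 0 higher of 46, beside 2.61% and 3.33%. The median log2 fold change was -0.12, with 31 members below 0 and 16 above, beside 9605 and 8587 of all 18192 genes tested. Without overlap between groups, 16 members were lower in the homozygous libraries and 5 higher, beside 18.2% and 17.4%.

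The members that DESeq2 called lower were 1 export factor and 2 receptor subunits. Itgb1, the beta subunit shared by the collagen-binding integrins, measured 1390, 1515.6 and 1337 CPM against 972 and 1098 CPM (log2 fold change -0.45, SE 0.115, edgeR adjusted p = 0.149, DESeq2 adjusted p = 0.00619). Itga1, its partner in the integrin that prefers type IV collagen, measured 316, 359 and 289 CPM against 228 and 251 CPM (log2 fold change -0.43, SE 0.122, edgeR adjusted p = 0.177, DESeq2 adjusted p = 0.0401). Sec24d, a coat protein of the vesicles that carry procollagen out of the endoplasmic reticulum, measured 238, 259 and 227 CPM against 186 and 186 CPM (log2 fold change -0.38, SE 0.0978, edgeR adjusted p = 0.153, DESeq2 adjusted p = 0.0189). For each of the 3 the homozygous values lay below every control. The call of Itgb1 was lost without homozygous replicate 2 (DESeq2 adjusted p = 0.494), and those of Itga1 and Sec24d were lost with any library but heterozygous replicate 3 left out (adjusted p from 0.124 to 0.675). Ddr2, a receptor kinase for fibrillar collagen, measured 456, 401 and 368 CPM against 339 and 406 CPM and overlapped.

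Of the 14 hydroxylases and glycosyltransferases 12 had a log2 fold change below 0, and of the 11 folding and export genes 10 did. The medians were -0.21 and -0.12, and 9605 of all 18192 genes tested were below 0. P4hb, a subunit of prolyl hydroxylase, measured 453, 482 and 382 CPM against 387 and 413 CPM. Plod2, a lysyl hydroxylase, measured 126, 149 and 119 CPM against 103 and 116 CPM (log2 fold change -0.26, SE 0.126). Serpinh1, the collagen chaperone HSP47, measured 634, 984 and 549 CPM against 546 and 510 CPM, and the spread of the controls was wide, with heterozygous replicate 2 high. DESeq2 called Serpinh1 lower without heterozygous replicate 3 (adjusted p = 0.0339) but not with it. Sparc, a collagen-binding matrix protein, measured 2837, 3073 and 2019 CPM against 2425 and 2638 CPM, with heterozygous replicate 3 lowest as for Col1a1.

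Of the genes that trim and crosslink collagen outside the cell, 6 of 8 tested processing genes and 5 of 5 crosslinking genes overlapped. So did 11717 of all 18192 genes tested. Of the 8 tested procollagen-processing genes 6 had a log2 fold change above 0, beside 8587 of all 18192 genes tested. The 5 crosslinking oxidases lay between -0.17 and 0.22. Bmp1, the protease that removes the carboxyl propeptide, measured 171, 171 and 204 CPM against 195 and 184 CPM. Adamts2, which removes the amino propeptide, measured 395, 360 and 277 CPM against 345 and 356 CPM. Lox, lysyl oxidase, measured 241, 305 and 255 CPM against 289 and 335 CPM (log2 fold change 0.22, SE 0.132), and Loxl1 measured 297, 303 and 276 CPM against 276 and 293 CPM. Mep1a and Mep1b, proteases that can also trim procollagen, had 0 counts in all 5 libraries.

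Marker lists of other tissues moved between the libraries and are given because several express collagen. White adipocyte markers summed to 1771, 2668 and 1845 CPM in the heterozygous and 3204 and 3402 CPM in the homozygous libraries, with Fabp4 the most abundant and 5 of 10 called higher by DESeq2, which called 3.33% of all genes higher. Brown adipocyte markers, led by Ucp1, summed to 369, 716 and 281 against 1129 and 1050 CPM, with 4 of 8 called higher. Skeletal muscle markers, led by Myh1, summed to 599, 289 and 19.7 against 878 and 2389 CPM, and macrophage markers, led by Lyz2, to 290, 255 and 328 against 400 and 536 CPM, with 2 of 12 and 6 of 10 called higher. These lists stood higher in the same libraries as Col27a1, Col14a1, Col5a3 and Col6a6, and their part in those results was not tested. The summed markers of cardiomyocytes, Schwann cells and mesothelium, led by Ryr2, Pmp22 and Msln, overlapped between the groups. Single markers of the first 2 lists were mostly above 0, beside 8587 of all 18192 genes tested. These were 7 of 7 tested for cardiomyocytes, with a median log2 fold change of 0.61, and 9 of 10 for Schwann cells, with a median of 0.51. Of the markers on these 2 lists, 0 were called. The summed markers of erythrocytes, led by Hbb-bs, and chondrocytes, led by Comp, were lower in the homozygous libraries with 0 called.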

How the data were processed

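Aortic RNA of 3 heterozygous and 2 homozygous floxed Srf mice was sequenced, and the authors deposited a table of raw counts per gene symbol. Of the 6 samples in the labels, the first homozygous one was not analysed here. The library kit selects mRNA and keeps strand, per the labels. Per the submitters' processing notes, the tools were featureCounts (Subread 1.6.4), STAR 2.7.0f and fastp 0.20.0, on the build GRCm38. How each was set, which gene annotation was counted and whether strand was used is not given in these sources, so antisense reads could have been counted with a gene; the largest such overlap among the chains with at least 5 CPM was 5.65% of the exon length of Col4a3. Per kilobase lengths and coordinates came from GENCODE mouse release M21 on GRCm38, in which each of the 44 collagen symbols named 1 gene.

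From the counts, 18192 genes were kept by edgeR's filterByExpr, scaled by TMM and tested on group alone by the quasi-likelihood F test of edgeR 4.0.16 (R 4.3.3). Adjustment was by Benjamini-Hochberg over all genes tested, with calls at an adjusted p under 0.05. The SE is the size of the log2 fold change divided by the square root of F. The common dispersion corresponded to a biological coefficient of variation of 15.8%, and the residual and prior degrees of freedom were 3 and 4.01. The 5 aortae were frozen one by one, and p-values rest on the spread among them. No libraries of the same group matched each other within sampling noise, and libraries of different groups were not compared in this way. Depth was 26177821 to 34311855 counts per library. DESeq2 1.42.0, limma-voom (limma 3.58.1), another scaling, other filters, a replicate block and leaving out each library, with edgeR and with DESeq2, were the alternatives. The scripts were tested on simulated data.

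Every collagen with a mean of at least 5 CPM or called by edgeR or DESeq2 was named with its value in each library, together with the 3 largest changes in each direction, the called and the 2 most abundant pathway genes of each group, and the most abundant gene of each marker list. The chains, lists and tests were chosen with earlier results of these data known. The counts of members are therefore set beside those of all genes, and no test was run over a list.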

Additional observations from a re-analysis of the deposited data

How the results depend on the processing

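With 2 homozygous libraries, whether a chain passed the threshold depended on the test and on single libraries. edgeR called 0 chains in either direction under TMM, RLE size factors, the stricter filter and with each library left out, and limma-voom called 0 as well. DESeq2 called 5 lower and 1 higher, and edgeR without the low-count filter called 4 lower (Col18a1, Col4a1, Col4a2 and Col19a1) and 3 higher (Col27a1, Col6a6 and Col6a4); the cause was not tested. For the pathway list these settings called 3 and 2 lower. DESeq2 with each library left out, an alternative added after seeing the data, called from 1 to 8 chains lower, from 0 to 2 higher and from 0 to 4 pathway genes lower, where it called 0.807% to 3.23% of all genes lower and 0.836% to 4.37% higher; without a homozygous library the remaining one is assumed to vary like the controls. Of 50 single genes compared, 34 kept their direction in every alternative, among them the 6 chains that DESeq2 called; 12 genes, Srf included, were called in at least 1 alternative other than those added. The correlation of deviations between libraries of the same number was -0.0073 for replicate 2 and -0.18 for replicate 3. With 2 homozygous libraries, their deviations from the group mean mirror each other. These values therefore cannot show whether replicate numbers pair the samples. With the replicate block edgeR called 0 chains lower and 0 higher, and the block moved the basement membrane median from -0.16 to -0.095; it turned the direction of Col1a2 to 0.10, Col4a4 to 0.0019, Col20a1 to -0.045, Col7a1 to -0.13 and Sparc to 0.022. limma-voom turned Col1a2 to 0.0099 and Col9a3 to -0.017, and no filter turned Col1a2 to 0.0030. Leaving out each library in turn, the median ran from -0.18 to -0.0025 over all chains, from -0.20 to -0.092 over basement membrane chains, from -0.15 to 0.20 over other chains and from -0.14 to -0.036 over pathway genes. The fibrillar median, -0.01, lay near 0 and ran from -0.14 to 0.084, and the median of all chains was 0.03 with no filter. The genes whose direction turned when a library was left out lay near 0 or were variable: Col1a1 ran from -0.14 to 0.18, Col1a2 from -0.14 to 0.084, Col15a1 from -0.088 to 0.29, Col4a6 from -0.18 to 0.054, Col4a4 from -0.18 to 0.0031 and Col8a1 from -0.019 to 0.24. Col20a1 ran from -0.28 to 0.33, Col11a2 from -0.46 to 0.29, Col6a5 from -0.69 to 1.33, Col7a1 from -0.41 to 0.47, Col11a1 from -0.26 to 0.40, Col9a3 from -0.33 to 0.33 and Col13a1 from -0.37 to 0.81. Sparc ran from -0.21 to 0.076, Adamts2 from -0.091 to 0.14 and Loxl1 from -0.082 to 0.0040. The difference in the Col3a1 to Col1a1 ratio and the share of counts kept their direction in every alternative run, the share also over counts outside mitochondrially encoded genes (log2 ratio -0.10). Depth limits the tested chains under 2 CPM, whose SE ran from 0.306 to 0.677.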

Other observations

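Some chains differed between the libraries of 1 genotype. Homozygous replicate 3 had 4.07 times the Col6a5 of homozygous replicate 2, 1.30 times its Col15a1 and 1.23 times its Col19a1, but 0.545 times its Col7a1, 0.595 times its Col11a2 and 0.629 times its Col23a1. For Col18a1, Col4a1 and Col4a2 the same ratio was 0.906, 0.901 and 0.894. Among the heterozygous libraries, replicate 3 held 0.638 times the Col6a6, 0.644 times the Col8a2, 0.764 times the Col5a3 and 0.767 times the Col6a3 of the mean of the other controls, in addition to the type I and III chains. For Col4a5, Col12a1 and Col18a1 it held 0.997, 0.997 and 0.991 times that mean.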
